A study of Mus musculus with 3 samples.

Results

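The genes described here encode the nuclear subunits of the mitochondrial respiratory chain and ATP synthase, cytochrome c, and the factors that assemble these complexes. They were taken by name, as genes whose symbol in the array's platform annotation begins with Nduf, Uqc, Atp5 or Cox followed by a digit, or equals Sdha, Sdhb, Sdhc, Sdhd, Cyc1, Cycs or Cyct, and which had at least 1 probe set naming only that gene. This gave 103 of 19938 named genes, measured by 131 probe sets. Their RNA was measured in 3 samples labelled as spermatids from the testes of wild type male BALB/c mice aged 30 days, each on 1 Affymetrix Mouse Gene 1.0 ST array. The samples are numbered replicates of 1 untreated group, with no second group to set them against. Per the labels' protocols, the tubules were made into a suspension of single cells by homogenisation and a cell strainer, with no step that sorts a cell type, and the labels do not tell whether each replicate is another animal, so their spread may be technical.

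The respiratory chain passes electrons from NADH (complex I) and succinate (complex II) through complex III and cytochrome c to oxygen at complex IV, and ATP synthase uses the resulting proton gradient to make ATP. Most subunits are encoded in the nucleus, and a few of those of complex IV, together with cytochrome c, have a second gene used mainly in male germ cells. Cox6b2, Cox7b2 and Cox8c encode such germ cell forms of complex IV subunits, and Cyct encodes the testis form of cytochrome c, while Cox6b1, Cox7b, Cox8a and Cycs are their counterparts in somatic cells. Sperm carry their mitochondria in a sheath around the midpiece of the tail.

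Values are the authors' RMA levels per probe set on the log2 scale, and a gene's level is the median of its probe sets. A gene was called above background by limma's one-sided test of its mean against 7.98, the 95th percentile of vomeronasal receptor and hair keratin associated protein genes, which are not expected in testis, with p-values adjusted by Benjamini-Hochberg over all 19938 genes and a threshold of 0.05. By this rule 36.6% of all named genes were above background. Many values are exactly equal on all 3 arrays, so an SD of 0 marks tied values and not an absence of error, and for such a gene the test only asks whether its level lies over 7.98. The level of a gene also depends on how well its probes bind, so different genes are set side by side without a fold or a test.

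Markers of spermatids lay far above background in 8 of 8 genes with a median level of 12.23, led by the protamine gene Prm2 at 13.22 ± 0.04 (SD, n = 3). Markers of other cells of the testis were in the RNA too. All 8 spermatocyte markers were above background (median 11.21), as were 6 of 6 measured markers of Leydig cells, the steroid-producing cells between the tubules (median 10.23), and 4 of 7 of Sertoli cells, the supporting cells inside them (median 8.47). Of peritubular and endothelial markers 3 of 6 were called, of blood and immune markers 3 of 4, and of spermatogonial markers 1 of 8. The Sertoli cell genes called were Cst12 at 11.81, Clu at 11.24, Wt1 at 9.21 and Fshr at 8.47, while Sox9, Gata1 and Amh were not. The peritubular genes called were Dcn at 11.16, Acta2 at 9.37 and Myh11 at 8.72, while the endothelial genes Cdh5, Pecam1 and Kdr were not. The immune genes called were Mrc1 at 9.67, Lyz2 at 9.55 and Cd68 at 8.16, while the leukocyte gene Ptprc was not called at 6.67. Which of these cells the respiratory chain RNA came from was not tested, and in RNA from mixed cells, more cells of a type and more RNA per cell cannot be told apart.

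All 4 germ cell isoforms were above background, with a median level of 11.70. Each of them lay in the top 10% of all named genes. Their 4 somatic counterparts were above background as well, with a median of 9.66 against 7.45 for all named genes. In the top 10% lay 2 of these 4, Cox6b1 and Cycs. The Cycs level is the median of probe sets with means of 5.68, 10.50 and 10.81. Only that at 5.68 is numbered among probe sets of chromosome 6, where Cycs lies, so the place of Cycs is uncertain. With the lowest probe set of each gene, an alternative chosen after seeing the data, 3 of 4 counterparts were called and Cycs was not. With the stricter level of 9.16, the 99th percentile of the same background families, 4 of 4 germ cell isoforms and 2 of 4 somatic counterparts were called, against 19.3% of all genes.

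Promoter windows of both kinds of gene are printed here to show how a germ cell isoform and its counterpart differ in sequence around the start of transcription. Each window runs from 250 bases before the start to 50 after it, 5′ to 3′ on the strand of the gene, and comes from RefSeq on assembly GRCm38.p6. Capitals mark matches, on either strand, to the letters of 4 motifs of nuclear regulators named further on. The Cyct window (chr2:76360404-76360703, minus strand) and the Cycs window (chr6:50566520-50566819, minus strand) belong to the cytochrome c genes, and the Cox7b2 window (chr5:71548156-71548455, minus strand) and the Cox7b window (chrX:106015450-106015749, plus strand) to a complex IV subunit whose somatic gene is on chromosome X.
Cyct: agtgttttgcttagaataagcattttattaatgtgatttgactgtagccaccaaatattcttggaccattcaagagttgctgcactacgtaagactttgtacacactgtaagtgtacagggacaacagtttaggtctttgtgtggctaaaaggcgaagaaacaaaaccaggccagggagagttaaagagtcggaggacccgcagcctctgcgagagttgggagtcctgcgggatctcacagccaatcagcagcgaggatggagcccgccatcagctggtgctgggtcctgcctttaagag
Cycs: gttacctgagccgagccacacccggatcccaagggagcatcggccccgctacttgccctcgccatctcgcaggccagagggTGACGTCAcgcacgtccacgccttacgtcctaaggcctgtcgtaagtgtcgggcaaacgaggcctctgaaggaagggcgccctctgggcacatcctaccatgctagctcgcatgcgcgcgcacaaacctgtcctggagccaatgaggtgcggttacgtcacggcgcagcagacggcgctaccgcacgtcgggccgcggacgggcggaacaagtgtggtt
Cox7b2: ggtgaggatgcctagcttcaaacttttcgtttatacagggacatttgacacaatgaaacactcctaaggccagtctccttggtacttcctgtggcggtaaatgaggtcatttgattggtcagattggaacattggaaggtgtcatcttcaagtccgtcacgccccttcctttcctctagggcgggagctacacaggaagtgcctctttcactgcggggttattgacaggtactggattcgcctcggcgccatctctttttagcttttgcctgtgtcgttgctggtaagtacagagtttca
Cox7b: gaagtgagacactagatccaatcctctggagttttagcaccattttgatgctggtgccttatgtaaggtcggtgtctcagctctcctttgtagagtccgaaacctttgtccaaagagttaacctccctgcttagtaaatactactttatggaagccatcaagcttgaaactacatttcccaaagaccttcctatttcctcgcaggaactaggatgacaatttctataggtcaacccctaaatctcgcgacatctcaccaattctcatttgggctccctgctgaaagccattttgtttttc
The Cyct, Cox7b2 and Cox7b windows held no exact match, and the Cycs window held 1 exact match to the cyclic AMP response element. Near matches were not counted, so these windows may hold variants of the motifs. The Cyct window held 8 CpG dinucleotides and the Cycs window 32, while the Cox7b2 window held 10 and the Cox7b window 5.

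Cox8c, the germ cell form of subunit 8, read 12.68 on all 3 arrays, the highest level among the 103 genes (adjusted p = 8.79e-11, limma). Cox8a, its counterpart, read 8.81 on all 3 arrays (adjusted p = 2.46e-10, limma). Neither gene varied between arrays, and both sets of values are tied.

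Cox6b2 had 11.78, 11.74 and 11.78 on replicates 1, 2 and 3 (mean 11.77 ± 0.02, adjusted p = 5.88e-06, limma). Cox6b1 had 10.84, 10.84 and 10.81 (mean 10.83 ± 0.02, adjusted p = 1.28e-05, limma). Both encode subunit 6B, which lies on the intermembrane side of complex IV. The 3 arrays of Cox6b2 differed by at most 0.03 and those of Cox6b1 by 0.04.

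Cox7b2 had 11.60, 11.60 and 11.72 (mean 11.64 ± 0.07, adjusted p = 7.82e-05, limma). Cox7b, the X-linked counterpart of this gene of chromosome 5, had 8.75, 8.69 and 8.75 (mean 8.73 ± 0.03, adjusted p = 0.000415, limma). The Cox7b value is the median of a probe set with a mean of 9.11 and another with a mean of 8.35. The one at 9.11 is numbered among probe sets of chromosome 1.

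Cyct had 10.32, 10.19 and 10.68 (mean 10.39 ± 0.25, adjusted p = 0.00272, limma). Cycs had 10.46, 10.30 and 10.75 (mean 10.50 ± 0.23, adjusted p = 0.00199, limma). In both cytochrome c genes replicate 3 was highest and replicate 2 lowest. Without replicate 2 the Cyct mean was 10.50 and the call was lost (adjusted p = 0.052, from 6.39e-05 to 0.052 over its alternatives, limma). The Cycs level rests on the choice of probe sets, of which one read 5.68 on all 3 arrays, another had a mean of 10.50 ± 0.23 and the third 10.81 ± 0.21. By the array's numbering, only the one at 5.68 falls among probe sets of chromosome 6, where Cycs lies. Probe positions were not available, and the Cycs call may rest on probe sets outside the gene. With the lowest probe set of each gene, an alternative chosen after seeing the data, Cycs was not above background (adjusted p = 1, from 3.98e-05 to 1 over its alternatives, limma).

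**Figure D1:**
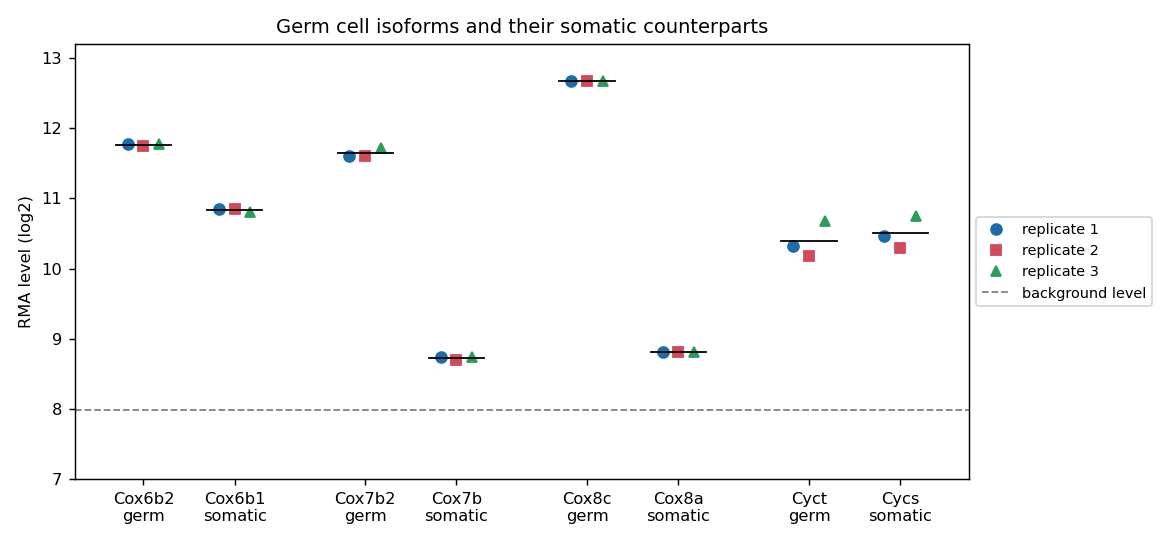
RMA level (log2) of each germ cell isoform (left of each pair) and its somatic counterpart (right) on replicates 1, 2 and 3, with the mean as a black line and the background level of 7.98 dashed. Cox8c, Cox6b2 and Cox7b2 lie between 11.60 and 12.68 and their counterparts between 8.69 and 10.84, while Cyct and Cycs lie between 10.19 and 10.75. The Cycs level is the median of probe sets with means of 5.68, 10.50 and 10.81. Levels of different genes also depend on probe binding.

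Complex IV also has isoforms specific to other tissues. None of the 4 isoforms of striated muscle and lung was above background by limma's test, 0 of 4 had an unadjusted p under 0.05, and 0 of 4 read above 7.98 on every array. Cox8b, the muscle and heart form of subunit 8, had 5.76, 5.93 and 5.76, and Cox7a1, the muscle form of subunit 7A, had 6.36, 6.48 and 6.36. Cox6a2, the muscle form of subunit 6A, was closest to the background level with 7.88, 7.93 and 7.81, and with the lower level of 7.18 from olfactory receptor genes it was called, when 55% of all genes were. Cox4i2, the form of subunit 4 found in lung, read 7.10 on all 3 arrays. Ndufa4l2, a paralog of Ndufa4 induced by low oxygen in other cells, had 7.72, 7.65 and 7.72 and was not called either. The general forms of the same subunits, Cox4i1, Cox6a1, Cox7a2 and Cox8a, were above background at 11.23, 11.68, 10.63 and 8.81. With the stricter level of 9.16, Cox8a was not called.

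Across all 103 genes, 89 (86.4%) were above background, and the median level was 9.62 ± 0.01 (SD of the arrays' medians, n = 3). The lowest was the assembly factor gene Ndufaf6 at 5.39 and the highest Cox8c. Of the 103 genes 75 lay in the top 25% of all named genes and 34 in the top 10%. Besides them, 5 symbols that fit the naming rule were found only on probe sets shared with another gene and are not counted, namely Cox7c, Cox16, Ndufb4, its copy Ndufb4b and the pseudogene Ndufs5-ps. The Cox7c probe sets, shared with Gm12338, had means from 11.11 to 11.34, those of Ndufb4 and Ndufb4b 10.35 and 10.56, and the Cox16 probe set, shared with Gm20498, 8.18.

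**Figure D2:**
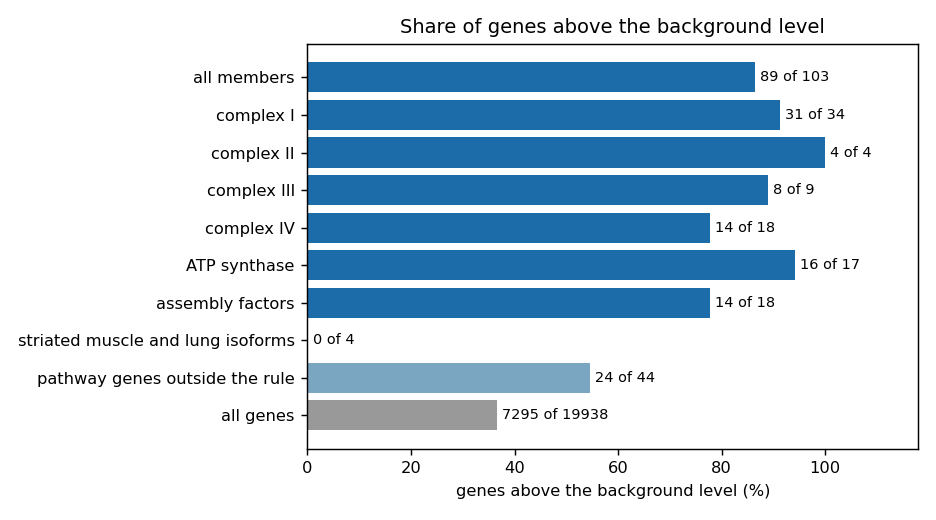
Share of genes above the background level (%, limma's test with Benjamini-Hochberg adjustment), for the lists of members, for pathway genes outside the naming rule and for all genes, with the counts at the bars. The lists of the complexes and of assembly factors reach 77.8% or more, the muscle and lung isoforms 0 of 4 and all genes 36.6%.

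Complex I, the entry point for electrons of NADH, was above background in 31 of 34 measured subunit genes, with a median level of 9.35. All 6 measured core subunit genes, which include those for the carriers of the flavin and iron-sulphur clusters, were called. They spanned Ndufs3 at 10.45 with tied values, Ndufv2 at 10.41 ± 0.15 and Ndufs1 at 10.13 ± 0.02 down to Ndufv1 at 9.03, Ndufs7 at 8.41 and Ndufs8 at 8.15, the last 3 tied. With probe sets of several genes added, which moved the background level to 8.33, Ndufs8 was no longer called. Of the 28 accessory subunit genes 25 were above background, with Ndufs4 (11.20 ± 0.01), Ndufa9 (10.74 ± 0.01) and Ndufc2 (10.46, tied) highest. The 3 that were not called were Ndufa1 with 7.82, 7.68 and 7.91, Ndufb2 at 7.62 with tied values, and Ndufa6 with 7.23, 7.23 and 7.56. Their levels lie under the 95th percentile of the background families and do not show that the genes are silent. Ndufab1, which also encodes the mitochondrial acyl carrier protein, was at 10.44 ± 0.01.

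Complex II, which links the citric acid cycle to the chain, was above background in all 4 genes. Sdha, the flavoprotein that oxidises succinate, had 11.05, 11.05 and 11.11, and Sdhb, its iron-sulphur partner, read 8.86 on all 3 arrays. Sdhc and Sdhd, the membrane anchors, were at 9.50 ± 0.07 and at 9.13 with tied values.

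Complex III, which hands electrons to cytochrome c, was above background in 8 of 9 genes, with a median of 9.89. The highest were Uqcrh, the hinge protein gene, at 11.46 ± 0.01, Uqcrc2, a core protein gene, at 11.05 ± 0.03 and Uqcrq at 10.05 with an SD of 0.0006. The lowest 3 were Uqcrc1 at 9.33, Cyc1, the cytochrome c1 gene, at 8.74 with tied values, and Uqcr11 at 7.66 ± 0.02. Uqcr11 was not called, and its probe sets read 7.92 and 7.41. Uqcrfs1, the Rieske iron-sulphur protein gene, was at 9.91 with tied values.

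Complex IV, which reduces oxygen, was above background in 14 of 18 measured subunit genes, with a median of 10.41. The 4 that were not called are the muscle and lung isoforms. The highest 3 were Cox8c, Cox6b2 and Cox6a1, and Cox7b2 followed. Among the genes used in most tissues, Cox6c was at 11.01 ± 0.08, Cox5b at 10.47 ± 0.0036 and Cox5a at 10.36 with tied values. Ndufa4, first named as a complex I gene and later placed in complex IV, had 9.36, 9.26 and 9.36.

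ATP synthase was above background in 16 of 17 genes, with a median of 10.31. All 5 genes of the catalytic head were called, with Atp5b, the beta subunit gene, at 12.14, 12.09 and 12.23, and Atp5a1, the alpha subunit gene, at 11.33 with an SD of 0.0025. Of the 12 genes of the stalk and the membrane part 11 were called. Atp5mpl was highest at 11.84 ± 0.06, and Atp5g1, Atp5g2 and Atp5g3, which encode the same mature ring subunit c, were at 9.57 ± 0.07, 9.85 ± 0.0059 and 11.20 ± 0.10. Atp5md, a small subunit gene, had 8.22, 8.04 and 8.28, all above the level, but did not pass the test (adjusted p = 0.112, limma). Its highest probe set had a mean of 9.47, and with the highest probe set of each gene Atp5md was called.

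**Figure D3:**
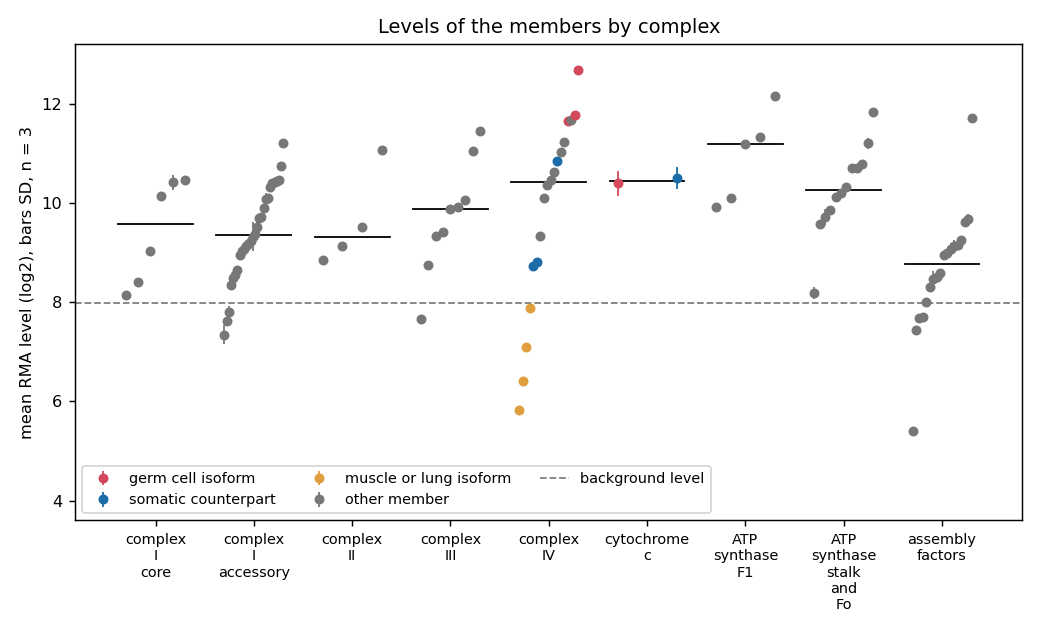
Mean RMA level (log2) of each gene with its SD over 3 arrays, by complex, with the median of each list as a black line and the background level of 7.98 dashed (Ndufa4l2, which belongs to no list, is not drawn). Germ cell isoforms are the highest points of complex IV apart from Cox6a1, which lies between Cox7b2 and Cox6b2, and muscle and lung isoforms are its lowest 4.

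Assembly factors, which help to build the complexes without staying in them, had a median level of 8.77, against 9.91 for the subunits and cytochrome c. They were above background in 14 of 18 genes, and in 4 of 18 at the 99th percentile level, a count near the 19.3% of all genes called there. Ndufaf3, a complex I assembly factor gene, stood apart at 11.71 with tied values, followed by Ndufaf2 at 9.68 ± 0.09 and Cox20 at 9.62. The 4 genes not called were Cox19, a copper pathway factor of complex IV, at 7.67, Ndufaf5 at 7.71, Uqcc3, a complex III factor, at 7.43, and Ndufaf6 at 5.39. Cox14 was the called gene nearest to the level at 8.01, and its call was lost when the columns were shifted to a common median. It was also lost at the 99th percentile level and with probe sets of several genes added. Cox11 and Ndufaf4 were lost in these last 2 settings too. Ndufaf4 (8.50, 8.30 and 8.62) lost its call without any 1 of the 3 replicates, as did Ndufb6 among the complex I subunits.

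Genes of the same pathway outside the naming rule were above background in 24 of 44 measured genes, with a median of 8.20, and in 8 of 44 at the 99th percentile level, where 19.3% of all genes were called. The count at that stricter level is near the share of all genes. The highest were Atpif1, the inhibitor of ATP synthase, at 12.03 with an SD of 0.0039, Higd2a, a factor for complex IV and supercomplexes, at 11.35 ± 0.04, and Tfb1m, which methylates mitochondrial ribosomal RNA, at 10.22 ± 0.07. Tfam, which packages and transcribes mitochondrial DNA, was at 10.20 ± 0.08. The lowest were Ppargc1b at 6.59 ± 0.01, the complex IV assembly gene Coa7 at 6.38 with tied values, and Ppargc1a at 5.82 ± 0.05. Ppargc1a and Ppargc1b encode coactivators of mitochondrial biogenesis in somatic tissues. The regulator gene Nrf1 was not called at 7.61 ± 0.05, while Gabpa, the DNA-binding part of GABP, was above background at 10.11 ± 0.06.

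Only 3 of the 103 genes are on chromosome X, which is silenced during male meiosis and is partly transcribed afterwards. Ndufa1, Ndufb11 and Cox7b had levels of 7.80 ± 0.12, 8.35 with tied values and 8.73 ± 0.03, against a median of 9.69 for the 100 autosomal genes. Ndufa1 was not called, and the probe sets of Ndufb11 read 9.04 and 7.66, on either side of the background level. The probe sets of Cox7b had means of 9.11 and 8.35. By the array's numbering, the lower probe set of Ndufb11 and of Cox7b lies near that of Ndufa1, and the higher among those of autosomal genes. The levels of Ndufb11 and Cox7b may thus include probe sets outside chromosome X, and probe positions were not available. With the lowest probe set of each gene Ndufb11 was not called. Among all 739 named X-linked genes 27.6% were above background, against 36.6% of all named genes. The part of silencing in these levels was not tested.

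Probe sets of the same gene often differed. Of the 103 genes 19 had more than 1 probe set, with a median spread between their means of 0.50. In 6 genes the spread was over 1, namely Cycs (5.13), Ndufc1 (1.68), Atp5pb (1.40), Ndufb11 (1.38), Atp5md (1.35) and Atp5h (1.33). Only Cycs and Ndufb11 had probe sets on both sides of the background level. Processed copies of respiratory chain genes are common in mammalian genomes and can share probes with their parent genes, so these 6 levels are uncertain.

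The arrays differed little for these genes. All 3 values were tied in 32 of 103 genes (31.1%), against 46% of all genes, and the median SD of the 71 others was 0.04, against 0.05 for all untied genes. The largest SDs belonged to Ndufb6 (0.29), Cyct (0.25), Cycs (0.23), Ndufa6 (0.19) and Ndufaf4 (0.16). Ndufb6, a complex I accessory subunit gene, had 9.27, 9.05 and 9.63. In 49 of the 71 untied genes (69%) replicate 3 read above replicate 2. Over all untied genes replicate 3 read above replicate 2 in 45.1%. Among the untied genes called above background, it did so in 42 of 60 of these genes (70%) and in 79.4% of all. The spermatocyte markers had medians of 11.19, 11.11 and 11.27 on replicates 1, 2 and 3, highest on replicate 3 and lowest on replicate 2, and the spermatid markers 12.23, 12.19 and 12.25. All genes called above background had medians of 9.40, 9.37 and 9.43, in the same order, as had the blood and immune markers (8.88, 8.77 and 8.90). The Leydig cell markers had 10.32, 10.22 and 10.18, highest on replicate 1. The part of cell types in the array differences was not tested.

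**Figure D4:**
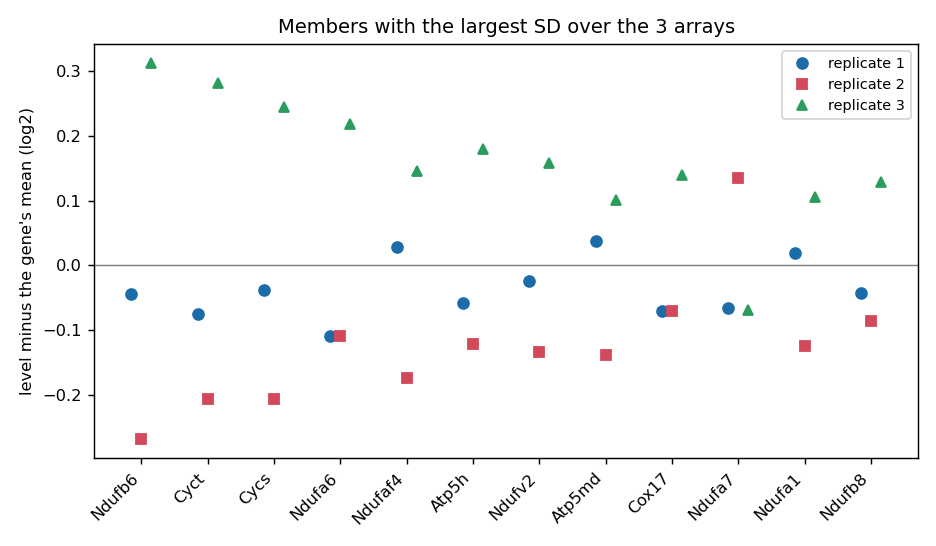
Level of each gene on replicates 1, 2 and 3 minus its mean (log2), for the 12 members with the largest SD. Replicate 3 is highest in 11 of these 12 genes, which were picked for their spread. It is highest in 34 of all 71 untied members (47.9%) and in 33.9% of all untied genes. Among untied genes called above background it is highest in 51.7% of members and in 62% of all.

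Respiratory chain genes are known targets of the nuclear regulators NRF1, GABP and YY1, and some bind CREB at cyclic AMP response elements (CRE), so their promoter windows were searched for exact matches on both strands. RefSeq windows matched 84 of the 103 genes, with 89 windows in all. The NRF1 letters, GCGCA and GCGC with any 1 base between them, were in 20 windows (22.5%), against 4.6% of 32851 windows of all genes. The GABP letters CCGGAAGT were in 8 windows (8.99%, against 3.89%), the YY1 letters AAGATGGCG in 8 (8.99%, against 1.4%) and the CRE letters TGACGTCA in 5 (5.62%, against 1.79%). No 2 different motifs overlapped in these windows. The windows of these genes were also richer in CpG, with a median of 20 CpG dinucleotides against 7 for all windows, which the motif shares were not corrected for.

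The Sdha window (chr13:74350191-74350490, minus strand), printed because it held the most NRF1 matches, had 3 of them, shown in capitals.
Sdha: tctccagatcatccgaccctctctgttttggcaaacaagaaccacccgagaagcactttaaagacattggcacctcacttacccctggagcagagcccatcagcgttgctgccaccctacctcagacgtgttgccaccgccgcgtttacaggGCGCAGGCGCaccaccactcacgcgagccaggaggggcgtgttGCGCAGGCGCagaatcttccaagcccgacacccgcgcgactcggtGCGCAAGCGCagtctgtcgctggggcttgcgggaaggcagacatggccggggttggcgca
Of the 8 YY1 matches 7 began at positions 272 to 286 of their windows, just past the start of transcription at position 251, and all 8 were on the strand of the gene. These 7 genes included Ndufs4, Ndufa9 and Atp5j2. None of the 3 germ cell isoform windows held a match to any of the 4 motifs, and Cox8c had no window. Of the 4 somatic counterparts Cycs held the CRE and Cox8a the GABP letters at 2 places. Any of the motifs was found in 37 of the 89 member windows, a share that was not computed for all windows. So few windows cannot set the germ cell isoforms apart from their counterparts or from other genes. Genes not called above background held NRF1 matches in 2 of 10 windows, and genes called in 18 of 79. A match describes the letters only, and these windows were not tested for binding.

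**Figure D5:**
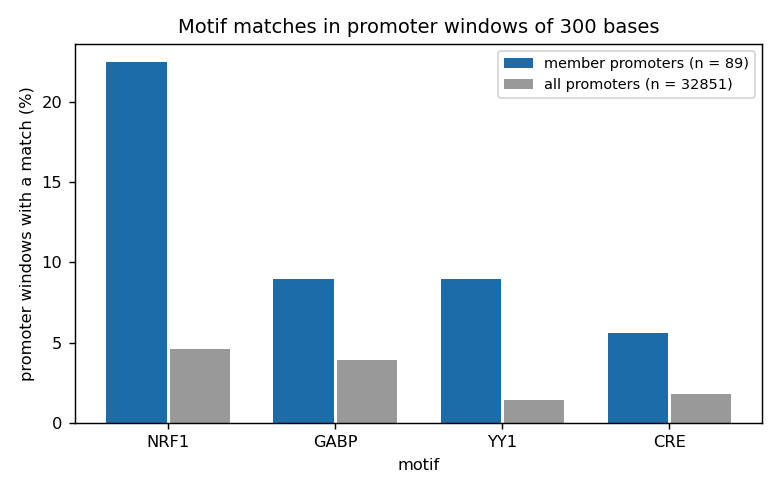
Share of promoter windows of 300 bases with at least 1 match (%) to each of 4 motifs, in the windows of the members (blue, n = 89) and in all windows (grey, n = 32851). The NRF1 share is 22.5% among the members and 4.6% among all windows.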

How the data were processed

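RNA of 3 samples was measured on Affymetrix Mouse Gene 1.0 ST arrays. The deposited values are log2 probe set levels, which the authors made by RMA in Affymetrix Power Tools on an mm9 annotation, per the series' design text. Its version was not given in the sources used here, and no scanner files were used. The number of arrays limits the precision.

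Of 35556 probe sets, the platform annotation named 1 gene for 21789 and several for 1621. Symbols were updated by Entrez identifier to assembly GRCm38.p6 for 21698 of the 21789, and the array's symbol was kept for 91. The background families held 167 Vmn1r or Vmn2r genes and 44 Krtap genes. The test used limma 3.58.1 in R 4.3.3 with an intercept model. It was tried on simulated data without tied values, which does not show how it behaves with tied genes. The estimated prior carried 0.267 degrees of freedom, and 9173 genes had tied values. Column medians were 7.17, 7.20 and 7.17.

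Members and lists were chosen with earlier results of these data known. Genes named in the text were the isoforms and counterparts, the highest and lowest 3 of each complex, X-linked genes, the 5 with the largest SD, subunits not called, and genes with disagreeing or shared probe sets. Printed promoter windows and some further genes were chosen after their values were seen. Alternatives covered the background level, the probe sets, the variance model, the call rule, a common column median and leaving out each array. No protein sequences were used.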

Additional observations from a re-analysis of the deposited data

How the results depend on the processing

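Of 128 recomputed values for 12 results, 119 stayed near the reported ones, a count within 1.5 times of it and the median within 1 SD of the arrays' medians. Counts near the full size of their list could not rise that far, and the lists overlap, so this tally is no measure of stability. The range of 1.5 times is wide for counts. The pathway genes outside the naming rule went to 34 of 44 with the olfactory receptor level, where 55% of all genes were called. With probe sets of several genes added they went to 18 of 45 and the assembly factors to 11 of 19, where 31.6% of all genes were called. With the background level at the 99th percentile (9.16), where 19.3% of all genes were called, 58 of 103 genes were above background, with 16 of 34 in complex I, 2 of 4 in complex II, 2 of 4 somatic counterparts, 4 of 18 assembly factors and 8 of 44 pathway genes outside the naming rule. The lower level from olfactory receptor genes (7.18) called 1 of 4 muscle and lung isoforms. The median level of the 103 genes was 9.76 with the highest probe set and 9.50 with the lowest, a setting chosen after seeing the data. Leaving out each replicate gave 82 to 87 members above background and, for the germ cell isoforms, 3 to 4, where Cyct was lost without replicate 2. The other calls lost were those of Cox10, Cox11, Ndufaf4, Ndufb6 and Ndufb10 without replicate 1, of Cox11, Cox17, Ndufaf4, Ndufb5, Ndufb6 and Ndufb10 without replicate 2, and of Ndufaf4 and Ndufb6 without replicate 3. These fits have 2 arrays each. No paired analysis was possible because the samples form 1 group. Without scanner files, signal over background could only be judged against genes not expected in testis.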
